A study of Mus musculus with 6 samples.

Results

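The genes described here handle zinc and copper inside cells: the metallothioneins Mt1 and Mt2, their zinc-sensing regulator Mtf1, the zinc transporters Slc30a1, Slc39a8 and Slc39a14, the copper importer Slc31a1, the copper chaperones Atox1 and Ccs, and the copper pump Atp7a. They were taken by gene symbol from a table of 13490 genes measured in inguinal white adipose tissue, a fat depot under the skin of the groin, and all 10 were found, 6 that handle zinc and 4 that handle copper. The mice were wild-type C57BL/6J males aged 15 weeks. The control group of 3 mice (replicates 4, 6 and 8) drank distilled water, and the exposed group of 3 mice (replicates 9, 10 and FC16) drank water containing 300 ppb sodium arsenite, a salt of trivalent inorganic arsenic, for 9 weeks.

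Metallothioneins are small, cysteine-rich proteins that hold zinc and copper on their thiol groups. When free zinc rises, the transcription factor encoded by Mtf1 binds metal response elements in front of Mt1, Mt2 and Slc30a1 and drives their transcription. Thiol-binding metals and metalloids, arsenite among them, are known inducers of metallothionein in cells and in liver. Copper enters cells through the Slc31a1 product and is passed on by chaperones. Atox1 carries it to the pump Atp7a, which loads secreted copper enzymes and expels surplus copper, and Ccs carries it to the antioxidant enzyme Sod1.

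The table gave a mean abundance per group, on a count-like scale, and not a value for each mouse, so each mean printed below is the authors' mean of a group, with no SD. It also gave a log2 ratio of arsenite over water and, under the heading PPEE, a posterior probability that a gene is expressed equally in both groups. Here a gene is said to be called where its PPEE was 0.05 or lower. Depth is known only as the 20000000 mapped reads that the labels give for every sample. The tissue label was checked against 8 adipocyte markers, all of them measured. Their means summed to 367091 under water and 364443 under arsenite, with 4 of 8 ratios below 0. Fabp4 was the largest part of these sums, at 223241 and 218556. The means of 5 brown and beige adipocyte markers, which mark heat-producing fat cells, summed to 53493 and 21339, and all 5 had ratios below 0. Those of 6 endothelial markers summed to 2319 and 4101, all 6 with ratios above 0. Macrophage markers summed to 3829 and 3307 (4 of 6 below 0), skeletal muscle markers to 168377 and 128135 (5 of 6 below 0), and fibroblast and preadipocyte markers to 8262 and 9555 (1 of 5 below 0). No measured marker was listed at 0, so transcripts of each type, skeletal muscle included, were present in both groups. Over all genes, the arsenite means summed to 89.6% of the water means, and the sums and means given here were not rescaled for it. In whole tissue, fewer cells of a type and less RNA per cell cannot be told apart.

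Copper handling genes held the only call. Atox1, the chaperone of the secretory route, fell under arsenite, and the copper importer Slc31a1 had a lower mean of similar size that was not called. Among zinc handling genes, Mt2 and the zinc exporter Slc30a1 had nearly the same means in both groups, Mt1 and Slc39a14 had lower means and Slc39a8 a higher one, and none was called. The call on Atox1 was 1 of 10 genes, against 0.734% of all 13490 genes called in either direction (99 genes) and 0.348% called lower (47 genes). With a single call, this share rests on 1 gene.

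**Figure D1:**
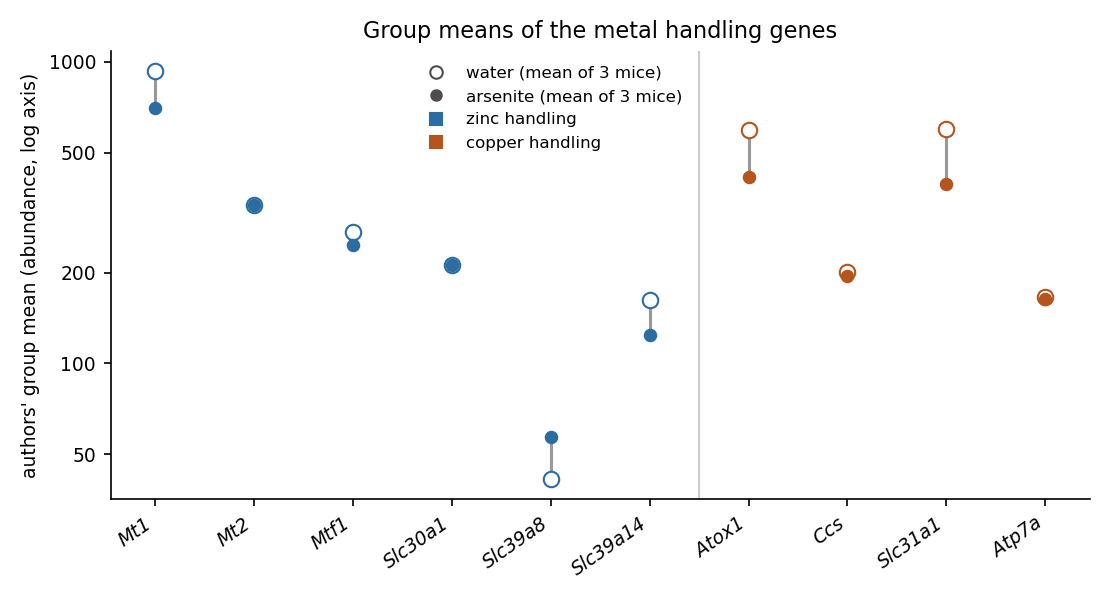
Authors' mean abundance (log axis) of each gene under water (open circles) and arsenite (filled circles), each the mean of 3 mice, zinc handling genes on the left and copper handling genes on the right. Atox1 fell from 597 to 414 and Slc31a1 had 601 and 394, while the circles of Mt2, Slc30a1, Ccs and Atp7a nearly coincide.

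Mt1 and Mt2 sit side by side on chromosome 8 and encode the metallothioneins found in most tissues. Mt1 (gene ID 17748, chr8:94178883-94180327, plus strand, GRCm38.p6) had an authors' mean of 932 in the water group and 702 in the arsenite group, a difference of -24.7%. For Mt1 the authors' deposited table lists a log2 ratio of -0.41 (PPEE 0.985). Mt2 (gene ID 17750, chr8:94172618-94173567, plus strand) had 336.3 in both groups, and the authors' deposited table lists its log2 ratio as 0.00 (PPEE 0.997). Mt1 thus had the lower mean under arsenite and Mt2 the same mean to the first decimal. Per base of gene length, Mt1 stood 2.64 times as high as Mt2 under water and 1.99 times as high under arsenite, and the log2 ratio of the pair differed by -0.41 between the groups. No spread between mice is available for this ratio. Both genes are short, at 583 and 556 bases, and the 218 genes under 600 bases had a median log2 ratio of -0.33, with 83.9% below 0 and 4 called. Of the 500 genes nearest in length, 157 had a lower ratio than Mt1 and 412 a lower ratio than Mt2. With the trend on length removed, the log2 ratio was -0.12 for Mt1 and 0.30 for Mt2, and the part of length in these values was not tested. Mt3 and Mt4 are among the further copper genes listed below but matched none of the genes measured.

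The metal response elements of this pair are shown because they are the sequences through which zinc and other metals reach both genes. The core was searched as TGCACNC and TGCGCNC on both strands, with overlapping matches merged, in the first 150 bases of the first-named GENCODE M21 transcript of each gene. In Mt1 and Mt2 these transcripts begin upstream of the letters TATAAA, at base 129 of the Mt1 transcript and base 90 of that of Mt2, so the elements lie inside the annotated first exon. Mt1 held 4 sites before TATAAA and Mt2 held 3. Of 21227 protein-coding transcripts searched in this way, 16.5% held at least 1 site, 0.273% at least 3 and 0.0283% (6 transcripts) at least 4. The sites follow with 8 flanking bases on each side, plus strand, GRCm38, with the core in capitals, and a core beginning with G is read on the minus strand.
Mt1 site 1, chr8:94179083-94179105: gggagctcTGCACTCcgcccgaa
Mt1 site 2, chr8:94179101-94179123: ccgaaaagTGCGCTCggctctgc
Mt1 site 3, chr8:94179165-94179187: cgcctgctGGGTGCAaacccttt
Mt1 site 4, chr8:94179179-94179201: aaacccttTGCGCCCggactcgt
Mt2 site 1, chr8:94172668-94172690: aaaagggcGTGTGCAggcggcgg
Mt2 site 2, chr8:94172687-94172709: gcgggggcGCGTGCAtggtgcct
Mt2 site 3, chr8:94172721-94172743: ggagctttTGCGCTCgacccaat

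Both genes thus carry clustered cores, and neither was called. The same search of the first 150 bases found 1 core each in Slc30a1 and Atp7a and none in Mtf1, Slc39a8, Slc39a14, Atox1, Ccs or Slc31a1. Searched in the same manner, the 250 bases before the RefSeq transcript starts (GRCm38.p6, matched for 8 of the 10 genes) held 3 cores for Mt2, 2 for Atp7a, 1 each for Mt1 and Slc30a1 and, for Slc39a8, 1 at the second of its start sites. Mtf1, Atox1 and Slc31a1 held none there, against 21.4% of 32851 promoters with at least 1. These are matches of letters and say nothing of whether the factor binds.

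**Figure D2:**
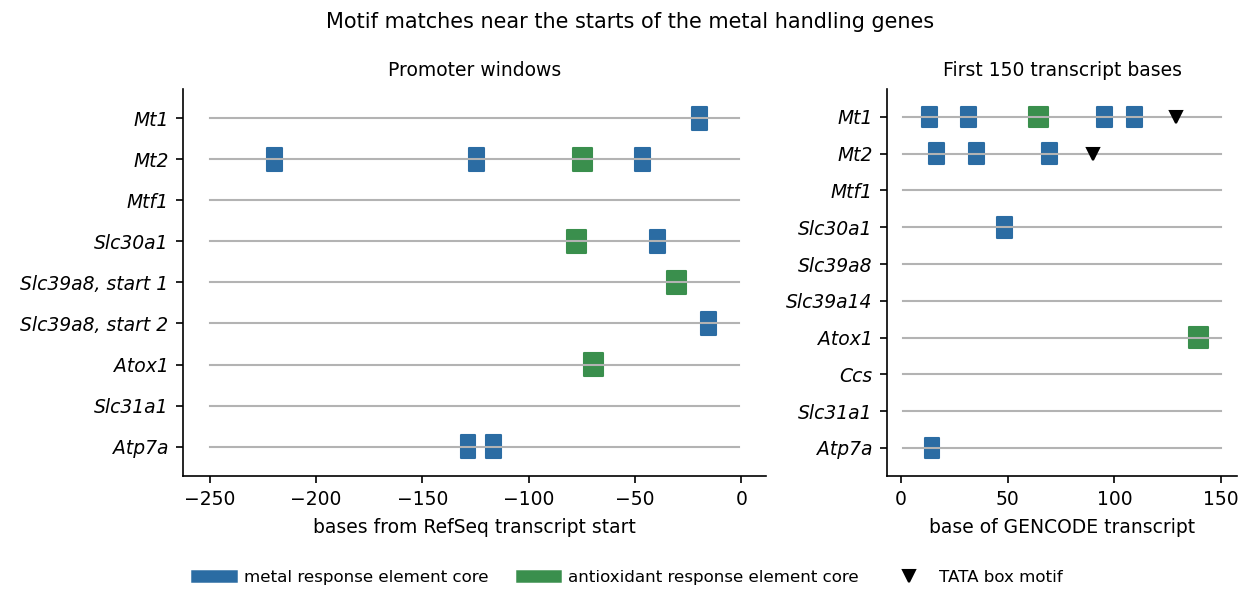
Positions of metal response element cores (blue), antioxidant response element cores (green) and TATAAA (black triangles) in the 250 bases before RefSeq transcript starts (left, bases from the start) and in the first 150 bases of GENCODE transcripts (right). Mt1 and Mt2 show 4 and 3 metal response element cores ahead of TATAAA, more than any of the other genes drawn.

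Mtf1 (gene ID 17764, chr4:124802549-124849800, plus strand), which encodes the zinc-sensing factor itself, had means of 273 and 247, for which the authors' deposited table lists a log2 ratio of -0.14 (PPEE 0.996). Slc30a1 (gene ID 22782, chr1:191906697-191913248, plus strand) encodes ZnT1, which exports zinc across the plasma membrane and is a textbook MTF1 target. Its means were 211 and 212, or 0.01 as a log2 ratio in the authors' deposited table (PPEE 0.999). For each of Mtf1, Slc30a1 and Mt2, the arsenite mean was therefore within 10% of the gene's own water mean. Other genes described as targets of MTF1 in cells had 6 of 9 measured members with ratios above 0 and 3 below (median 0.26), or 7 or 8 above 0 with another scaling or the length trend removed, and 0 were called. Ndrg1, a stress-responsive gene, had means of 342 and 642, which the authors' deposited table gives as a log2 ratio of 0.91 (PPEE 0.379). Gclc, the catalytic subunit of glutathione synthesis, had 239 and 287, and Txnrd2, a mitochondrial thioredoxin reductase, 298 and 232. Several of these genes also answer to other signals, and over all genes the median ratio was -0.03 with 54.5% below 0.

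The importers Slc39a8 and Slc39a14 lay in opposite directions. Slc39a8 (gene ID 67547, chr3:135816882-135888572, plus strand) encodes ZIP8, which brings zinc, manganese and cadmium into cells. It was the lowest-expressed of the 10 genes, with means of 41.4 and 57.1, and the authors' deposited table lists its log2 ratio as 0.46 (PPEE 0.982). Slc39a14 (gene ID 213053, chr14:70303467-70351452, minus strand) encodes ZIP14, which imports zinc, manganese and iron. It had means of 162 and 124, and its log2 ratio is -0.38 in the authors' deposited table (PPEE 0.991). Per length, Slc39a14 stood 2.70 times as high as Slc39a8 under water and 1.5 times as high under arsenite, a log2 change of -0.85 in the ratio of the pair, the widest of the 9 pairs compared. Beside the higher Slc39a8 mean, the endothelial markers given above were higher as well and the macrophage markers were split (4 of 6 below 0 as deposited, 3 of 6 with upper-quartile scaling), and their part in it was not tested.

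The other zinc transporters gave no call. Of 21 listed members of the exporter family (SLC30) and the importer family (SLC39), 15 were measured, 5 with ratios above 0 and 10 below (median -0.09), although 9 lay above 0 once the summed means of both groups were made equal. Among exporters, as deposited, 4 of 6 lay below 0, and among importers 6 of 9. Slc39a2 had the lowest ratio, with means of 10.5 and 4.25, close to the lowest levels measured, and -1.21 as its log2 ratio in the authors' deposited table (PPEE 0.963). Slc30a6, part of the machinery that delivers zinc to the early secretory pathway, had means of 102 and 69.7. Slc30a2, a vesicular zinc transporter, had 38.7 and 28.6, and Slc30a9 943 and 759. The highest ratios were those of Slc39a11 and Slc39a1, with means of 102 and 128 and of 760.5 and 874. The PPEE of the 15 genes was 0.963 or higher in the authors' deposited table.

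Atox1 (gene ID 11927, chr11:55446637-55461208, minus strand) encodes the small cytosolic chaperone that hands copper to the secretory pumps. Its authors' mean fell by 30.6%, from 597 to 414, and the authors' deposited table lists a log2 ratio of -0.53 for it (PPEE 0.0366). That PPEE ranked 91st of 13490, with 8 called genes above it, so the call stood close to the threshold. The size was ordinary among called genes, whose median absolute log2 ratio was 0.53. Counting Atox1, 263 genes with an average mean between 253 and 1011 had a log2 ratio of -0.5 or lower, and 10 of them were called. Their share of all genes in that range was not computed. Atox1 is one of the shortest genes measured, at 501 bases. As with the metallothioneins, genes of its length had low ratios, and the 500 genes nearest to Atox1 in length had a median log2 ratio of -0.30, with the middle 80% between -0.67 and 0.13. Of those 500, 98 had a ratio below that of Atox1 and 8 were called. With the trend on length removed, the log2 ratio of Atox1 was -0.20, and the part of length in the call was not tested. Among the 500 genes nearest to Atox1 in level, 31 had a lower ratio and 7 were called. The middle 80% of those 500 lay between -0.43 and 0.30, so Atox1 was below that range. The bases before the annotated start of Atox1 are shown because it is the called gene. They hold no metal response element core and 1 match, in capitals, to the antioxidant response element core TGACNNNGC. On one strand or the other, 10.2% of promoters of 250 bases also hold at least 1. The match does not set Atox1 apart, as the windows of the uncalled Mt2, Slc30a1 and Slc39a8 (first start site) held 1 each. In the first 150 transcript bases, Atox1 and the uncalled Mt1 held 1 each. The sequence (GRCm38.p6, RefSeq, minus strand) runs up to the first base of the GENCODE transcript.
Atox1, chr11:55461240-55461458: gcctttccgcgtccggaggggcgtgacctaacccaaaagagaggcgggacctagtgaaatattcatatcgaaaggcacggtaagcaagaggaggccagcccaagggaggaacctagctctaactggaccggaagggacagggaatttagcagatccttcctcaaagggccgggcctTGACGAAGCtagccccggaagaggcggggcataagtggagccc

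**Figure D3:**
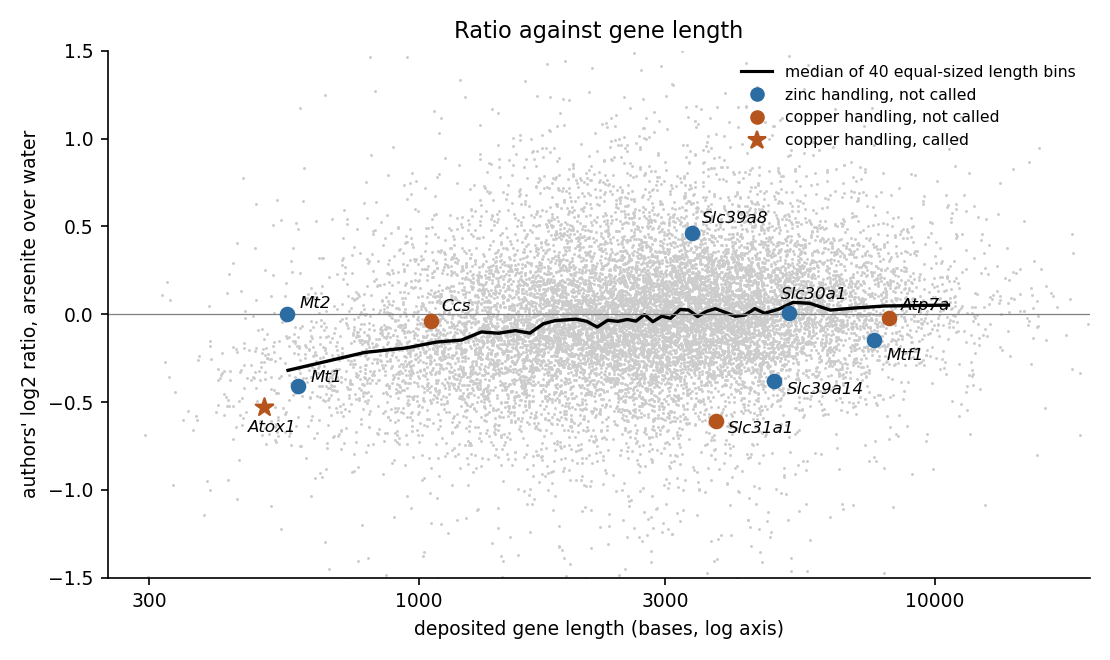
The authors' log2 ratio of arsenite over water against deposited gene length (log axis) for all genes (grey), with the median of 40 equal-sized length bins (black line) and the zinc (blue) and copper (orange) handling genes, the called Atox1 as a star; genes with a ratio beyond 1.5 either way or a length outside the axis are not drawn. Atox1 and Mt1 lie near the falling left end of the line and Mt2 above it, whereas Slc31a1, at -0.61, lies far below the line at its own length.

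Slc31a1 (gene ID 20529, chr4:62360583-62391769, plus strand) encodes CTR1, the high-affinity copper importer of the plasma membrane. Its means were 601 and 394, a difference of -34.3%, and its log2 ratio is -0.61 in the authors' deposited table. It was not called, as its PPEE is 0.372 in the authors' deposited table, although its level and its ratio were close to those of Atox1. PPEE also depends on the spread between mice, which could not be examined for either gene. Slc31a1 is 3764 bases long, and the 500 genes nearest in length had a median of 0.01 with the middle 80% between -0.35 and 0.40. Only 20 of those 500 had a lower ratio than Slc31a1, and with the length trend removed its log2 ratio was -0.62. Among the 500 genes nearest in level, 12 had a lower ratio than Slc31a1 and 10 were called.

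Ccs and Atp7a had nearly the same means in both groups. Ccs (gene ID 12460, chr19:4825366-4839356, minus strand), which loads copper into Sod1, had 200.5 and 195, and -0.04 as its log2 ratio in the authors' deposited table (PPEE 1.0). Atp7a (gene ID 11977, chrX:106027224-106128161, plus strand) had 166 and 163, and -0.02 as its log2 ratio in the authors' deposited table (PPEE 0.999). Atp7b, which encodes the related pump best known from liver, was looked for but matched none of the genes measured. The ratio of the importer to the pump was lower under arsenite. Per length, Slc31a1 stood 7.84 times as high as Atp7a under water and 5.23 times as high under arsenite. Atox1 stood 6.28 times as high as Ccs under water and 4.47 times as high under arsenite. The log2 ratios of these pairs differed between the groups by -0.58 and -0.49. Per length, Slc31a1 stood at 0.134 of Atox1 under water and at 0.127 under arsenite, nearly the same ratio as deposited, although with the length trend removed the log2 ratios of these genes were -0.62 and -0.20. No spread between mice stands behind these ratios.

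Set side by side, the 6 zinc handling genes had a median log2 ratio of -0.07, 3 above 0 and 3 below, and the 4 copper handling genes a median of -0.28, all 4 below 0 as deposited but 2 of them, Ccs and Atp7a, above 0 with upper-quartile scaling, at 0.02 and 0.04. The zinc median exceeded the copper median by 0.21, a description over few genes with no test. With the length trend removed the difference was 0.065, and the ratios of the short genes Atox1 and Ccs were then -0.20 and 0.12. As deposited, Slc31a1 and Atox1 had the lowest ratios of the 10 genes, but with the length trend removed Slc39a14, at -0.41, lay below Atox1 and Mtf1, at -0.20, lay level with it.

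**Figure D4:**
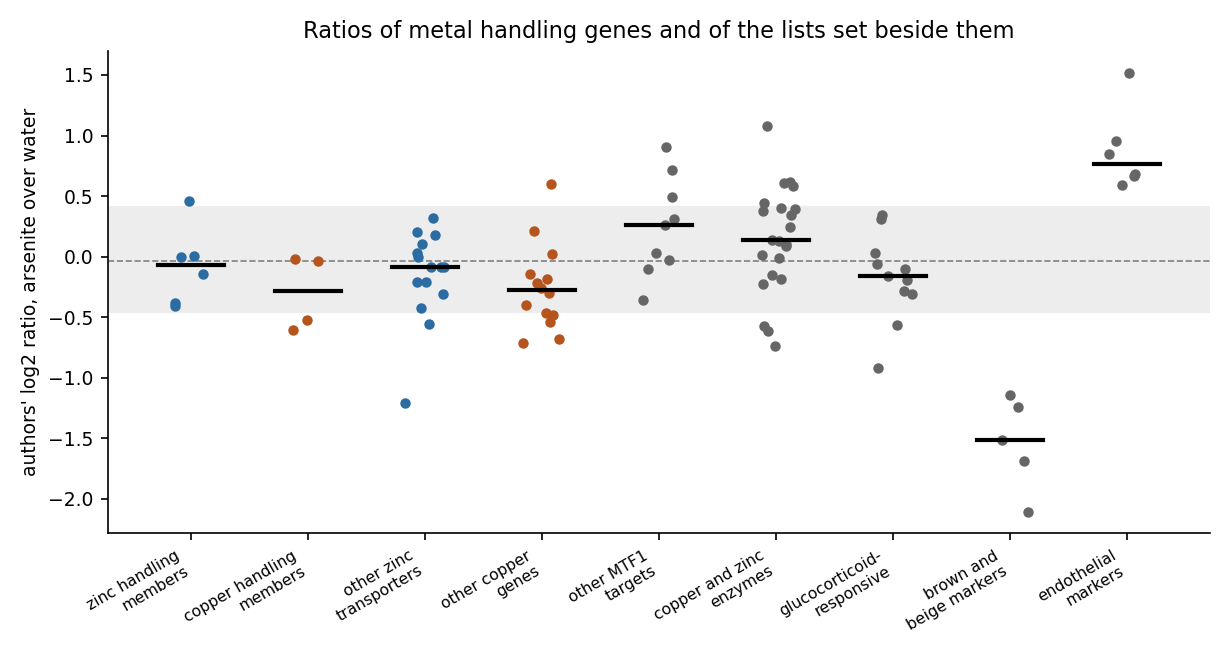
The authors' log2 ratio of arsenite over water for each gene (points, spread sideways for visibility) of the zinc and copper handling members and of the lists set beside them, with list medians (black bars), the median of all genes (dashed line) and the middle 80% of all genes (grey band, -0.46 to 0.41). The copper handling members and the other copper genes have medians of -0.28 each, and the brown and beige markers lie below the band and the endothelial markers above it.

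Further copper genes mostly had lower means too, without a call. Of 20 listed genes 14 were measured, 11 with ratios below 0 and 3 above (median -0.28, or -0.18 with the length trend removed), and 10 or 11 lay below 0 under each scaling tried. A set of 6 that bring copper to cytochrome c oxidase in mitochondria was divided off after the values were seen. All 6 lay below 0 as deposited, with a median of -0.51, or -0.34 with the length trend removed. For a set divided off in this way, the shared sign is no test of the set. All 6 also lay below 0 under each scaling tried, but the scalings moved the median of all genes by 0.16 at most. The ratio nearest 0 was that of Sco1, at -0.30, so rescaling alone could hardly have turned a sign. The mitochondrial carrier gene Slc25a3, on the same list but left out of this set, lay nearer 0. Its means were 3661 and 3307, and its log2 ratio is -0.15 in the authors' deposited table (PPEE 0.998). Cox17, a copper chaperone of the mitochondrial intermembrane space, had means of 905 and 552. Sco2, which inserts copper into the enzyme, had 190.4 and 119. Cox19 had 865 and 595 and Coa6 201.5 and 146. Of the 14 measured genes, the lowest PPEE was that of Cox19, at 0.822 in the authors' deposited table. Memo1, reported as a copper-binding protein, had 557 and 423. The metalloreductase gene Steap4, which reduces copper and iron ahead of import, stood against the rest with means of 1476 and 2238, and 0.60 as its log2 ratio in the authors' deposited table (PPEE 0.994). Its relative Steap2 had 28.4 and 32.9. Beside these lower means, the brown and beige adipocyte markers, cells rich in mitochondria, had summed means of 53493 and 21339. Those of the skeletal muscle markers were 168377 and 128135, with 5 of 6 ratios below 0. The part of either cell type in the copper genes' means was not tested.

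By level per length, the order of the 10 genes was the same in both groups. Mt1 stood highest, at 1599 abundance units per kilobase under water and 1204 under arsenite. Atox1 followed with 1191 and 826, Mt2 with 605 and 605, Ccs with 190 and 185 and Slc31a1 with 160 and 105. Per length, both copper chaperones stood above the 3 zinc transporters among the 10 genes, though not above every other zinc transporter measured, since Slc39a7 had 431 and 429.7 per kilobase. Slc30a1 had 40.4 and 40.6 per kilobase, Mtf1 35.8 and 32.4, Slc39a14 33.1 and 25.4, Atp7a 20.4 and 20.0, and Slc39a8 12.2 and 16.9. Without values per mouse, it could not be judged which neighbours in this order differ beyond their spread.

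How far each value belongs to its gene was checked on transcript sequence. Stretches of 50 bases shared with other genes made up 0.289% of the transcripts of Slc39a8 and 0.187% of those of Slc39a14, and 0% in the other 8 genes, so Mt1 and Mt2 share none. An annotated antisense RNA on the opposite strand, Gm45774, covers 73.5% of the exon bases of Mt2. Exons on the opposite strand also cover 8.09% of Mtf1 and 8.92% of Slc30a1. Whether reads were counted by strand is not given in the sources used here, so for these 3 genes reads of the overlapping transcript cannot be told apart.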

How the data were processed

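RNA sequencing of inguinal white adipose tissue from 6 mice was used, 3 per group, grouped by the treatment in the labels. Per the labels' protocols, reads were aligned to GRCm38. Tools named, with no version or role, in the submitters' processing notes are RSEM, Bowtie2 and HISAT. The authors deposited a signal per gene, the mean of a count-like abundance over each group, with the scaling and gene filter not given in the sources used here. The authors also deposited a log2 ratio, which equals the log2 of the means' ratio after 0.574 is added to each. PPEE, a score from 0 to 1 in the deposited table, is EBSeq's term for the posterior probability that both groups are equally expressed, not a p-value. The control and treatment columns were read as water and arsenite. Columns of other samples numbered 0.

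Computed here were counts of calls, list medians, levels per deposited length, ratios between genes, a lowess of ratio on log10 length (span 0.3, tested on simulated data) and motif matches. The simulated ratios held a straight-line trend on log10 length, so that test could not judge the lowess on a trend of another shape. No model was fitted, since values per mouse were not analysed here, and replicates could not be compared or left out. Members and lists were chosen with earlier results of these data known. Named were the 10 members and, per list, called genes or else the 3 of smallest PPEE, plus the 2 highest and 2 lowest ratios of the zinc and copper lists; cell type markers are given as sums. Lists were matched by symbol or gene ID. Alternatives were an added constant of 0.1, upper-quartile scaling, quantile normalization, length adjustment, a minimum mean of 50, PPEE of 0.01 and 0.1, an absolute log2 ratio of at least 1, leaving out Mt1 and Mt2, and, chosen after the data were seen, equal summed means. Computation used Python 3.11.15 with pandas 2.3.3 and numpy 2.4.6, the lowess came from statsmodels 0.14.6 and plots from matplotlib 3.10.9.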

Additional observations from a re-analysis of the deposited data

How the results depend on the processing

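Of the 10 genes, the number called was 1 at a PPEE of 0.05 or 0.1 and with a minimum mean of 50. It was 0 at a PPEE of 0.01, where 63 genes of the table were called, and 0 when an absolute log2 ratio of at least 1 was also asked, where 11 were. The zinc minus copper difference of medians was 0.065 with the length trend removed, against 0.21 as deposited. It was 0.20 with quantile normalization, 0.14 with a minimum mean of 50 and 0.21 without Mt1 and Mt2. Upper-quartile scaling and equal summed means shift all genes nearly alike, so they could not move this difference. The added constant of 0.1 is small beside these means and left it at 0.21. Genes with ratios above 0 numbered 3 of 10 as deposited, 5 with upper-quartile scaling and 6 with equal summed means, which moved the median of all genes by 0.16. Atox1, Mt1, Slc31a1 and Slc39a14 kept ratios below 0 and Slc39a8 above 0 in the 5 alternatives run on single genes, with Atox1 between -0.53 and -0.20, Mt1 between -0.41 and -0.12 and Slc31a1 between -0.62 and -0.45. Mt2 lay at 0.30 with the length trend removed. Values were taken as moved from 0.1 on the log2 scale, since no spread between mice was at hand. No paired analysis was possible because the table gives group means. Leaving out each mouse in turn was not run for the same reason. For depth the labels give only the same 20000000 mapped reads for every sample, so differences in depth between libraries could not be examined. Slc39a8 is the least expressed of the genes.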

Other observations

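Enzymes that carry copper or zinc at their active site were not lower as a group. Of 23 listed genes 22 were measured, 15 with ratios above 0 and 7 below (median 0.13), and 0 were called. Car4, a membrane-bound carbonic anhydrase of capillaries, had means of 182 and 384, and 1.08 as its log2 ratio in the authors' deposited table (PPEE 0.154). Sod1, which receives its copper from Ccs, had 6473 and 5547, and its PPEE is 0.626 in the authors' deposited table. Car2, a cytosolic carbonic anhydrase, had 67.8 and 44.0. Secreted and cell-surface copper enzymes, which receive copper through Atox1 and Atp7a, were named after their values were seen. Aoc3, the vascular adhesion amine oxidase that adipocytes also express, had 5473 and 8323. Pam, which amidates peptides, had 351 and 540.3, Lox, the collagen cross-linking oxidase, 908 and 1177, Sod3 1958 and 2574, and the ferroxidases Heph and Cp 522 and 689 and 1498 and 1652. These chosen genes had ratios above 0 and none was called, whereas Tyr, a copper enzyme of the same route and list, had 462.5 and 406. The endothelial markers were higher beside them (6 of 6 ratios above 0), and their part was not tested.

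Glucocorticoids also raise metallothionein transcription, and 11 genes known to respond to them were all measured, 3 with ratios above 0 and 8 below (median -0.16), or 5 above and 6 below with quantile normalization, and 0 were called. Zbtb16, a zinc finger factor, had means of 667 and 353, the cell cycle inhibitor Cdkn1a 899 and 607, and the kinase gene Sgk1 628 and 777. Among common readouts of the receptor, chosen here with their values known, Fkbp5 had 717 and 668, Tsc22d3 1185 and 1035 and Per1 774 and 740.6. On the same list, Klf9 had a higher mean under arsenite, with 1268 and 1297, as did Sult1a1, with 1555 and 1975.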
